A study of Homo sapiens with 4 samples.

Results

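Transcripts of 7 matrix metalloproteinases (MMP1, MMP2, MMP3, MMP9, MMP10, MMP14 and MMP15) and of 3 tissue inhibitors of metalloproteinases (TIMP1, TIMP2 and TIMP3) were measured in A2780s cells, an established human epithelial ovarian cancer (EOC) line. The genes were chosen by name among the spots that are not controls, which gave 10 of the 29123 names on the array, read by 11 probes on 38 spots. All 10 were among the 27196 genes tested. Ctrl was a mock-transfected A2780s clone, whose RNA the labels put in Cy3 on each of the 4 arrays. The GALNT3 KO group was 2 clones in which CRISPR/Cas9 disrupted GALNT3, and the GALNT3/T6 KO group was 2 GALNT3 KO clones that also carried a lentiviral shRNA against GALNT6. RNA of each KO clone was on an array of its own, in Cy5 by the labels, so that n = 2 clones in each group. With these labels there is no dye swap and dye cannot be told apart from genotype, but the methods speak of reverse-color labelling, so the direction of the ratios rests on the labels. The double KO clones differ from the GALNT3 KO clones by the lentivirus as well as by its target, and these cannot be told apart either. Each value is the log2 of KO over Ctrl. Ctrl RNA was the other channel of each array, so each test against Ctrl leaves out the spread of Ctrl itself. The labels describe Ctrl alike on all arrays, while the methods allow a separate Ctrl clone for each group.

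The MMPs are zinc-dependent endopeptidases that are made as inactive zymogens and cut collagens, laminins, proteoglycans and other proteins of the extracellular matrix once their prodomain is removed. The TIMPs are small secreted proteins that occupy the active site of the MMPs, so the balance of both families sets how much matrix is cut, and in EOC these proteases are studied for their part in peritoneal spread. GALNT3 and GALNT6 encode Golgi enzymes that attach the first sugar, N-acetylgalactosamine, to serine and threonine residues of mucins, fibronectin and other proteins. The arrays measure RNA only and give no activity of a protease or an inhibitor.

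The targeted genes were read first. In both channels of the 2 GALNT3 KO arrays, Ctrl included, GALNT3 failed to rise well above background, which leaves it uninformative about the labels there. Its log2 ratio in the clones labelled GALNT3/T6 KO was 4.80 and 5.08, that is, against the label, and the group is therefore named by its label throughout. GALNT6 stood at -0.47 and -0.38 in GALNT3 KO and at -0.66 and -0.69 in the clones labelled GALNT3/T6 KO. By limma it was lower than Ctrl in both groups (adjusted p = 0.0445 and 0.00334). The groups differed by -0.25 (adjusted p = 0.212 from limma), so a GALNT6 knockdown beyond GALNT3 KO was not shown. GALNT6 was dim, with mean Ctrl levels of 7.99 and 7.84 on the arrays of these groups, which limits how far it can fall. The paper reports a rise of GALNT6 protein in its GALNT3 KO clones, which was not seen in the RNA here. Over the genes tested, which do not count as replicates, the log2 ratios of arrays of the same group correlated at r = 0.835 and 0.917, and those of different groups at 0.205 to 0.324. Between the arrays of the groups, the Cy3 channels differed by a median of 0.15 on the log2 scale over all genes tested and the Cy5 channels by 0.37. Cy3 of the GALNT3 KO arrays and Cy5 of the others differed by 0.41, and Cy5 of the GALNT3 KO arrays and Cy3 of the others by 0.30. The Cy3 channels, labelled as Ctrl, were thus the most alike. Channels of the same dye can share its bias, and a swap on all arrays would not show, so the direction still rests on the labels. If the dyes of the GALNT3/T6 KO arrays were turned, each ratio against Ctrl there would change its sign, and the difference between the groups would be 0.16 for TIMP1 (adjusted p = 0.658 from limma) and -1.23 for TIMP2 (adjusted p = 0.0453), a choice made after seeing the data. A channel had 86.9% to 93.8% of its non-control spots well above background and 0 saturated ones. The number of arrays limits the precision.

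Of the 10 genes, 3 differed from Ctrl in GALNT3 KO by limma, fitted over all genes with Benjamini-Hochberg adjustment and a threshold of 0.05, with TIMP1 higher and MMP3 and MMP10 lower. In the same comparison 11.2% of all genes tested were called, 4.79% higher and 6.44% lower. The clones labelled GALNT3/T6 KO had 8 of the 10 genes called, with MMP9, MMP15, TIMP2 and TIMP3 higher and MMP1, MMP3, MMP10 and TIMP1 lower, beside 47.9% of all genes tested (24.8% higher and 23.1% lower). The test of the groups against each other called 5 of the 10, with TIMP2 and TIMP3 higher and MMP3, MMP10 and TIMP1 lower in the clones labelled GALNT3/T6 KO, beside 23.7% of all genes (11.9% in either direction). By the methods' criterion, which asks for an unadjusted p up to 0.05 together with 1.5-fold or more, 5 of the 10 genes counted as changed in each of these comparisons, beside 9.60%, 31.8% and 26.9% of all genes. The values of the groups did not overlap for 7 of the 10 genes, and for 61.0% of all genes tested. The median absolute log2 ratio of the 10 genes was 0.49 in GALNT3 KO and 0.70 in the clones labelled GALNT3/T6 KO, beside 0.21 and 0.35 over all genes tested. A fit without 1 GALNT3 KO array leaves 1 clone in that group, and its calls against Ctrl were lost over all genes. Such a fit cannot tell whether the calls of TIMP1, MMP3 and MMP10 there hold. Their log2 ratios had the same sign in both GALNT3 KO clones. Calls between the groups also fell over all genes without either GALNT3 KO array. Where an array was left out, the lone clone was assumed to vary like the other group. MMP3, MMP10 and TIMP1 are among the genes the study picked from these arrays for qPCR, so their values here are not independent evidence.

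**Figure D1:**
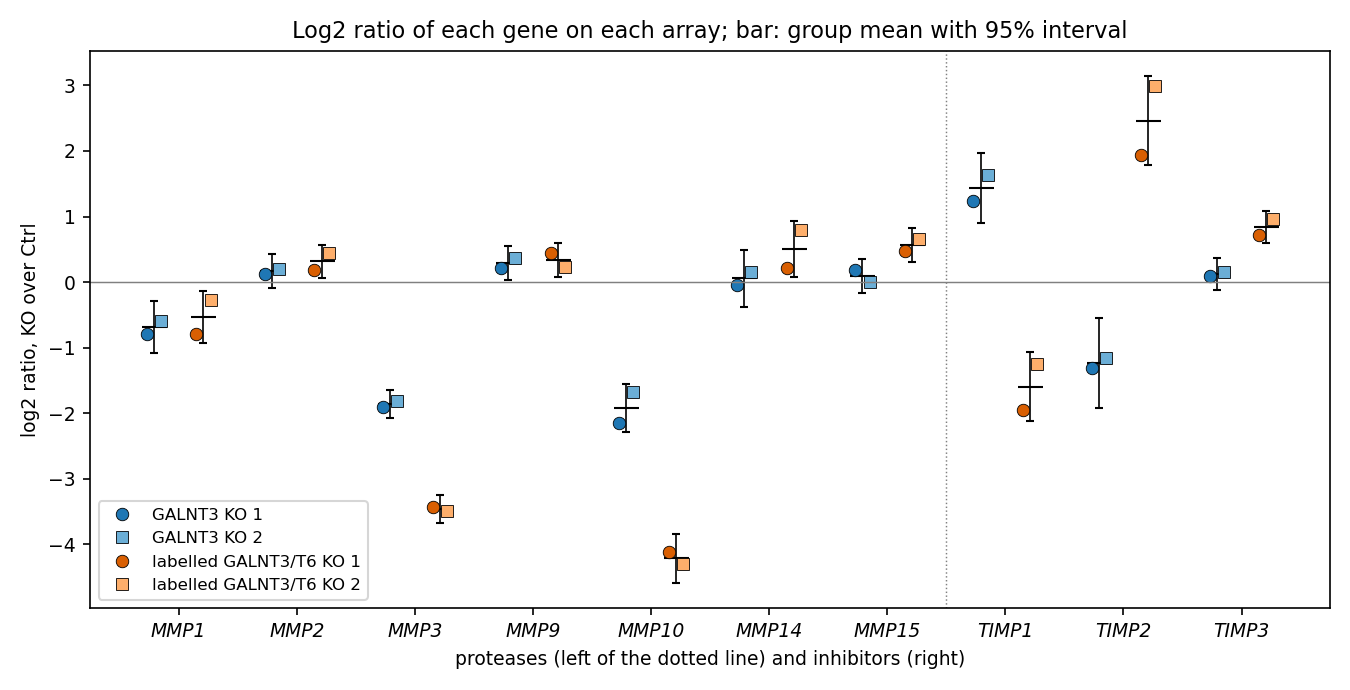
Log2 ratio of KO over Ctrl for the 7 proteases and 3 inhibitors on each of the 4 arrays (points), with the mean of each group and its 95% confidence interval from limma (bars). MMP3 and MMP10 lie below 0 on all 4 arrays, whereas TIMP1 and TIMP2 lie on opposite sides of 0 in the groups.

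The stromelysins MMP3 and MMP10, which cut proteoglycans, laminin and fibronectin and can activate other pro-MMPs, were the members with the largest falls. The log2 ratio of MMP3 was -1.91 and -1.81 in the GALNT3 KO clones and -3.42 and -3.50 in the clones labelled GALNT3/T6 KO. All 4 clones were thus below Ctrl, and the groups did not overlap. MMP3 was 3.63-fold lower in GALNT3 KO (95% confidence interval of the log2 ratio -2.08 to -1.64, adjusted p = 0.0056 from limma). It fell by 3.46 on the log2 scale in the clones labelled GALNT3/T6 KO (-3.68 to -3.24, adjusted p = 9.08e-05). The difference between the groups was -1.60 (-1.91 to -1.29, adjusted p = 0.00164).

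MMP10 had log2 ratios of -2.15 and -1.68 in GALNT3 KO and of -4.12 and -4.30 in the clones labelled GALNT3/T6 KO. It was below Ctrl in all 4 clones and lower in both clones labelled GALNT3/T6 KO than in either GALNT3 KO clone. The fall was 3.78-fold in GALNT3 KO (-2.29 to -1.55, adjusted p = 0.0116 from limma) and 18.5-fold in the clones labelled GALNT3/T6 KO (-4.58 to -3.84, adjusted p = 0.000127), with a difference of -2.29 between the groups (-2.82 to -1.77, adjusted p = 0.00261). Ranked from the lowest log2 ratio among the 27196 genes, MMP10 was at place 46 in GALNT3 KO and 27 in the clones labelled GALNT3/T6 KO, and MMP3 at 50 and 88. The Ctrl channels of both genes differed little between the 4 arrays, with log2 intensities of 13.08 to 13.31 for MMP3 and 13.35 to 13.43 for MMP10. The KO channel of MMP10 fell from a mean of 11.45 in GALNT3 KO to 9.20 in the clones labelled GALNT3/T6 KO and stayed well above background. The 60-base probes of MMP3 and MMP10, at chr11:102706694-102706753 and chr11:102641405-102641464 of hg19 on the minus strand, matched in at most 21 bases without gaps and shared no run of more than 6 bases.

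**Figure D2:**
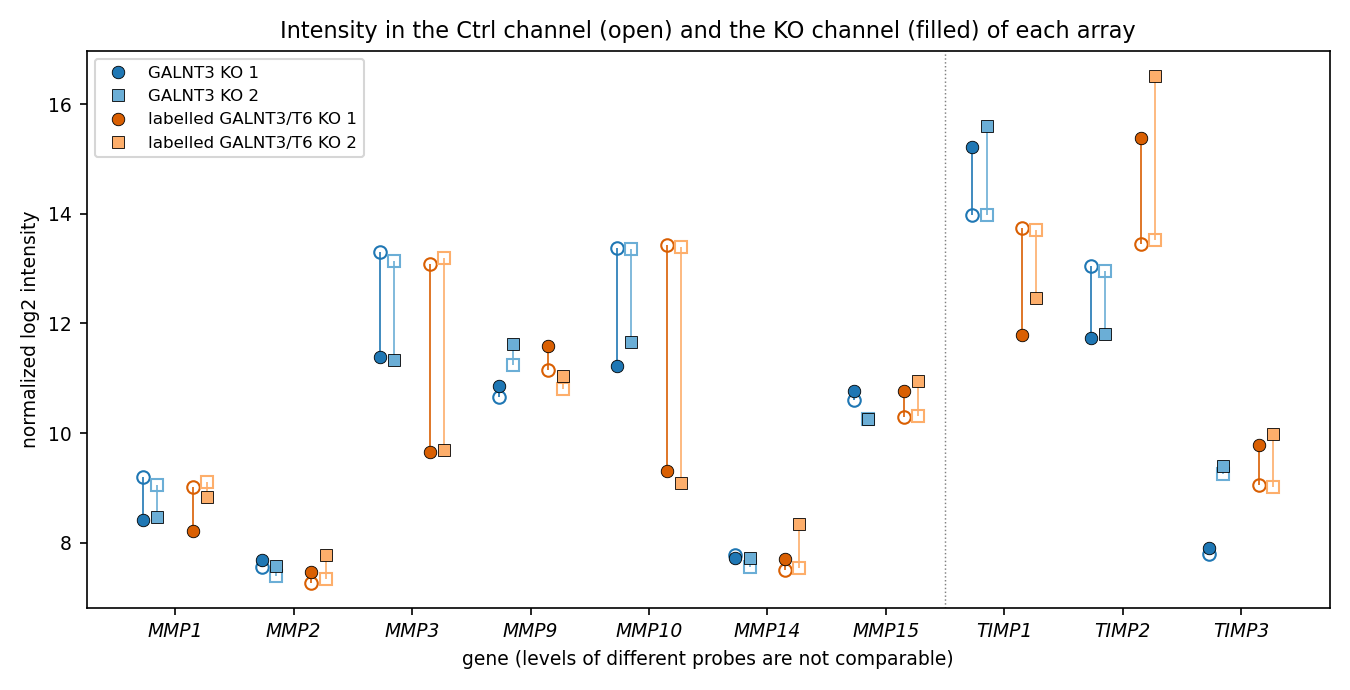
Normalized log2 intensity of each gene in the Ctrl channel (open symbols) and the KO channel (filled symbols) of each array, joined by a line, after loess and Aquantile normalization. Levels of different probes are not comparable. The Ctrl channels of MMP3, MMP10 and TIMP1 lie within 0.28 on the 4 arrays, while that of TIMP3 spans 1.45.

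MMP1, MMP3 and MMP10 are neighbours in the MMP cluster of chromosome 11q22, so the genes within 500 kb of their probes were read in order. MMP1, the interstitial collagenase that opens fibrillar collagen, lies between the stromelysins, with its probe at chr11:102660697-102660756. Its log2 ratio was -0.79 and -0.59 in GALNT3 KO and -0.79 and -0.27 in the clones labelled GALNT3/T6 KO, each the mean of 7 to 10 spots whose SD was 0.25 to 0.31. All 4 clones were below Ctrl and the groups overlapped. MMP1 was called in the clones labelled GALNT3/T6 KO, at 1.44-fold lower (adjusted p = 0.0418 from limma), and missed the threshold in GALNT3 KO, at 1.61-fold (adjusted p = 0.055). With the spread of GALNT3 KO only, MMP1 was called there. Over all genes 4577 were then called higher and 4864 lower in GALNT3 KO, against 1302 and 1751. The first call did not hold with median centring (adjusted p = 0.0582), with the log ratio of Agilent (0.0566), without either GALNT3 KO array (0.112) and without replicate 1 of its own group (0.159). The interval of the difference between the groups ran from -0.40 to 0.72.

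Among the 14 other features in this window, 0 were called higher and 2 lower in GALNT3 KO, and 5 were called higher and 2 lower in the clones labelled GALNT3/T6 KO. Of all genes tested 11.2% and 47.9% were called in these comparisons, so neither count sets the window apart. MMP12, the macrophage elastase gene next to MMP3, had mean log2 ratios of 0.08 and -0.35, and neither was called. MMP8, MMP20, MMP27 and MMP7 on the other side stood at 0.14 to 0.33 in GALNT3 KO and at 0.19 to 0.51 in the clones labelled GALNT3/T6 KO. Both stromelysins thus lay below the MMP genes that flank them in either group. At the far end BIRC3, an inhibitor of apoptosis, rose by 3.07 on the log2 scale in the clones labelled GALNT3/T6 KO (3.79 and 2.34, adjusted p = 0.00279 from limma), and its neighbours BIRC2 and TMEM123 rose by 0.98 and 0.90. DCUN1D5, on the MMP12 side, fell by 0.70 in GALNT3 KO and by 0.85 in the clones labelled GALNT3/T6 KO.

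**Figure D3:**
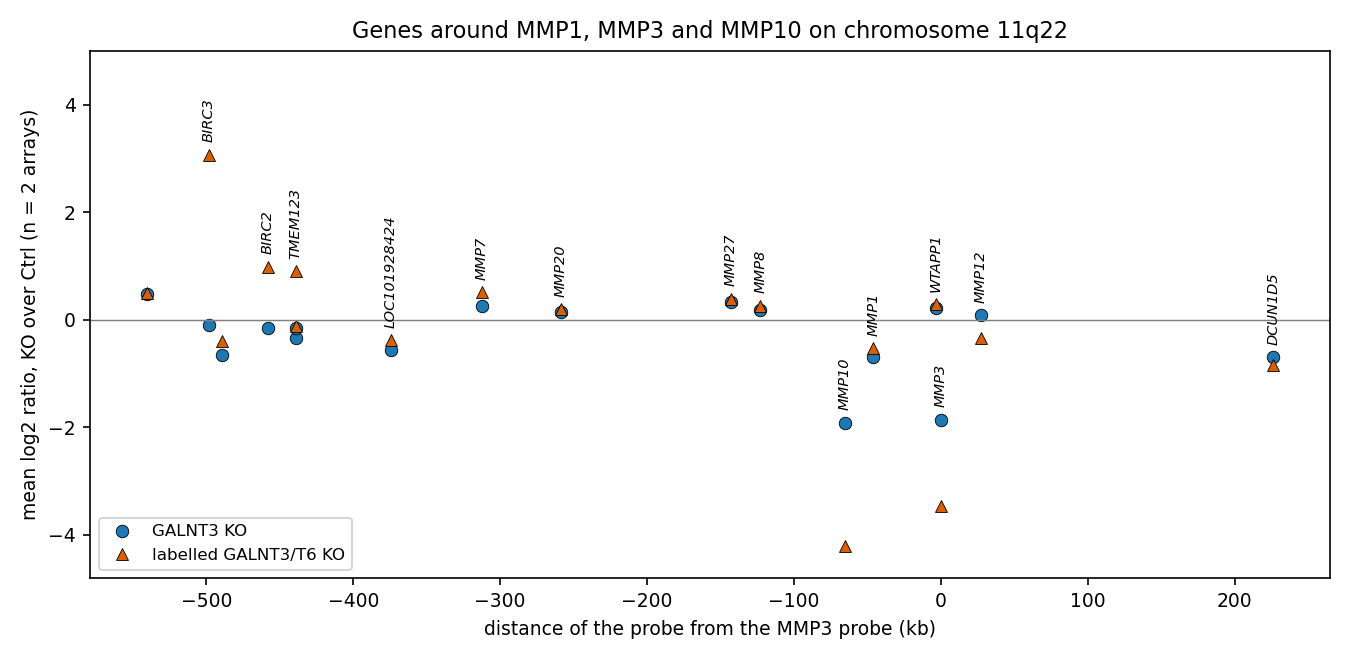
Mean log2 ratio of KO over Ctrl in each group (n = 2 arrays) for the genes around MMP1, MMP3 and MMP10, by the distance of each probe from the MMP3 probe in kb; 3 features without a gene name are drawn without a label. MMP10 and MMP3 lie below the MMP genes on both sides of them in both groups.

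Promoters of the cluster are shown because MMP10 and MMP7 share 2 motifs there. Their log2 ratios were of opposite sign, but MMP7 was dim and was not called in GALNT3 KO (adjusted p = 0.163 from limma). The sequences are the 250 bases before the start site in RefSeq (GRCh38.p14), 5' to 3' on the gene's minus strand, with TGANTCA (the AP-1 motif, which reads alike on both strands) and TATAAA (searched on both strands) in capitals. MMP10 is at chr11:102780629-102780878 and MMP7, the matrilysin gene, at chr11:102530748-102530997.
MMP10: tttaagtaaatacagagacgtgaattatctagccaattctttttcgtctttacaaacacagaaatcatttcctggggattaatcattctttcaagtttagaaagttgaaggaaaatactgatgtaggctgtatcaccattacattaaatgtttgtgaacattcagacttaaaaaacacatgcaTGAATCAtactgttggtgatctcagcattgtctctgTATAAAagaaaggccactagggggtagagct
MMP7: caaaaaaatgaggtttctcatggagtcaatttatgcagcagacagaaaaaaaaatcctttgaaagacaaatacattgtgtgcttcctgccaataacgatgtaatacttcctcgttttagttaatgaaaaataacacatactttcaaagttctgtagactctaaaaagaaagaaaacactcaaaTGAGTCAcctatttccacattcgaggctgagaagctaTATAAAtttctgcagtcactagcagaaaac
TGANTCA began 67 bases before the start site in both, and TATAAA 31 bases before it in MMP10 and 30 in MMP7. Of the 35116 promoters of the same length, 6.57% held TGANTCA, 3763 promoters held TATAAA and 1.07% held both. MMP20 also held both, at 112 and 72 bases, MMP8 held only TATAAA and MMP27 neither. The mean log2 ratio of MMP10 was -1.92 in GALNT3 KO and -4.21 in the clones labelled GALNT3/T6 KO, that of MMP7 was 0.26 and 0.51, and that of MMP20 was 0.14 and 0.19. MMP7 and MMP20 were dim, with mean Ctrl levels of 7.28 and 6.97 on the GALNT3 KO arrays, beside 13.37 for MMP10. Both were well above background in Ctrl on only 1 of these 2 arrays. Genes this dim have little room to fall, so the values do not compare the motifs, whose part was not tested. Promoter entries were found for MMP10, MMP14, MMP15, TIMP1 and TIMP3, and not for MMP1, MMP2, MMP3, MMP9 and TIMP2. MMP14, MMP15, TIMP1 and TIMP3 held no TGANTCA or TATAAA and held 1, 5, 2 and 5 matches of the GC box GGGCGG on either strand, which 42.6% of all promoters hold. A match is a description of the letters and does not show that a factor binds there.

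The gelatinases MMP2 and MMP9, which cut denatured collagen and basement membrane collagen, stayed within 0.44 of Ctrl on the log2 scale on each array. MMP2 was dim, with mean Ctrl levels of 7.47 on the GALNT3 KO arrays and 7.31 on those of the clones labelled GALNT3/T6 KO. It thus had little room to fall. Both genes are read by 1 probe each on 10 spots, at chr16:55539262-55539321 and chr20:44645121-44645180 of hg19. The log2 ratio of MMP2 was 0.13 and 0.20 in GALNT3 KO and 0.19 and 0.44 in the clones labelled GALNT3/T6 KO, and the SD over its spots was 0.11 to 0.25. All 4 values were above 0, the groups overlapped, and MMP2 was called in no comparison, with adjusted p-values of 0.282, 0.0535 and 0.558 from limma in GALNT3 KO, in the clones labelled GALNT3/T6 KO and between the groups, although 5 of 16 alternatives called it in the clones labelled GALNT3/T6 KO. MMP9 was at 0.21 and 0.37 in GALNT3 KO and at 0.44 and 0.23 in the clones labelled GALNT3/T6 KO, with an SD of 0.16 to 0.29 over spots. It was called in the clones labelled GALNT3/T6 KO, at 1.26-fold higher (adjusted p = 0.0446 from limma), and not in GALNT3 KO (adjusted p = 0.113). That call was lost in 10 of its 16 alternatives, with adjusted p-values of up to 0.333. The difference between the groups was 0.05, with an interval of -0.32 to 0.41.

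The membrane-type proteases MMP14 and MMP15 are anchored at the cell surface, and MMP14 activates pro-MMP2 there together with TIMP2. MMP14, read by a probe at chr14:23315791-23315850, had log2 ratios of -0.05 and 0.16 in GALNT3 KO and of 0.21 and 0.80 in the clones labelled GALNT3/T6 KO. It was dim, with mean Ctrl levels of 7.66 and 7.52 on the arrays of these groups, and had little room to fall. The groups did not overlap, but MMP14 was called in no comparison, with an adjusted p of 0.818 in GALNT3 KO, 0.0597 in the clones labelled GALNT3/T6 KO and 0.266 between the groups from limma. Without GALNT3/T6 KO replicate 1 the log2 ratio of the group rose to 0.80 (adjusted p = 0.00172 from limma), and the gene was also called without background correction (adjusted p = 0.0478) and with an offset of 10 (adjusted p = 0.045). MMP15 had values of 0.18 and 0.00 in GALNT3 KO and of 0.48 and 0.65 in the clones labelled GALNT3/T6 KO at its brighter probe, chr16:58080484-58080543. The groups did not overlap. It was called in the clones labelled GALNT3/T6 KO, at 1.48-fold higher (adjusted p = 0.00981 from limma, 0.0627 with median centring), and the difference between the groups missed the threshold (0.47, interval 0.11 to 0.83, adjusted p = 0.0734). The other MMP15 probe, chr16:58079526-58079585, read 0.20 and 0.28 in GALNT3 KO and 0.29 and 0.10 in the clones labelled GALNT3/T6 KO, so the probes disagreed on a difference between the groups.

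The inhibitors TIMP1 and TIMP2 had log2 ratios of opposite sign in the groups and, of the 10 genes, the largest differences between them. Each was read on 1 spot per array, and the 60-base probes are shown because these values rest on a single sequence each. They lie at chrX:47444666-47444725 on the plus strand and at chr17:76851654-76851713 on the minus strand of hg19, and matched each other in at most 20 bases.
TIMP1: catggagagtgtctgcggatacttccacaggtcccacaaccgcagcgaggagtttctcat
TIMP2: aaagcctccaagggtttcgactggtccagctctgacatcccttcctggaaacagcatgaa
TIMP1, an inhibitor of most secreted MMPs that also acts as a growth factor, had log2 ratios of 1.24 and 1.63 in GALNT3 KO and of -1.95 and -1.24 in the clones labelled GALNT3/T6 KO. Both GALNT3 KO clones were thus above Ctrl and both other clones below it. TIMP1 was 2.70-fold higher in GALNT3 KO (interval 0.91 to 1.96, adjusted p = 0.0302 from limma) and 3.02-fold lower in the clones labelled GALNT3/T6 KO (-2.12 to -1.07, adjusted p = 0.0039). The groups differed by -3.03 (-3.77 to -2.28, adjusted p = 0.00321 from limma), a call that was lost in 3 of 15 alternatives. Calls in opposite directions in the groups were made for 1.87% of all genes tested, of which TIMP1 is the only one among the 10. The call in GALNT3 KO was lost in 6 of 16 alternatives. These were median centring (adjusted p = 0.0526 from limma), the replicate block and the methods' t-test, adjusted or not. The fits without either GALNT3 KO array, which leave 1 clone in that group, were the others.

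TIMP2, which inhibits MMPs and takes part in the activation of pro-MMP2, ran the other way. Its log2 ratio was -1.31 and -1.16 in GALNT3 KO and 1.93 and 2.99 in the clones labelled GALNT3/T6 KO. Both GALNT3 KO clones were below Ctrl and both other clones above it. TIMP2 was 5.51-fold higher in the clones labelled GALNT3/T6 KO (interval 1.78 to 3.14, adjusted p = 0.0023 from limma). In GALNT3 KO the 2.35-fold lower mean missed the threshold (-1.92 to -0.55, adjusted p = 0.0516 from limma), and it was called with a normexp offset of 10 (adjusted p = 0.045). TIMP2 was also called there with the spread of GALNT3 KO only, where calls over all genes rose as well. The difference of 3.70 between the groups (2.73 to 4.66, adjusted p = 0.00376) was at place 216 from the highest among all genes tested. Its call was lost in 3 of 15 alternatives. The 2 clones labelled GALNT3/T6 KO were 1.06 apart. The Ctrl channel of TIMP2 was brighter by 0.48 on the arrays of the clones labelled GALNT3/T6 KO, beside a median absolute difference of 0.15 over all genes tested, while the KO channel was brighter by 4.17.

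TIMP3, which binds to the matrix and inhibits MMPs and ADAM proteases, had log2 ratios of 0.10 and 0.15 in GALNT3 KO and of 0.73 and 0.96 in the clones labelled GALNT3/T6 KO. The groups did not overlap. TIMP3 was 1.79-fold higher in the clones labelled GALNT3/T6 KO (interval 0.59 to 1.09, adjusted p = 0.00282 from limma) and not called in GALNT3 KO (adjusted p = 0.387). The groups differed by 0.72 (0.36 to 1.07, adjusted p = 0.022), a call that was lost with median centring (adjusted p = 0.0755). The Ctrl channel of the TIMP3 probe, at chr22:33258540-33258599, read 7.80 on the array of GALNT3 KO replicate 1 and 9.03 to 9.25 on the others, and the KO channel of that array was low as well, at 7.90 beside 9.40 to 9.98. Its part in the difference between the groups was not tested.

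**Figure D4:**
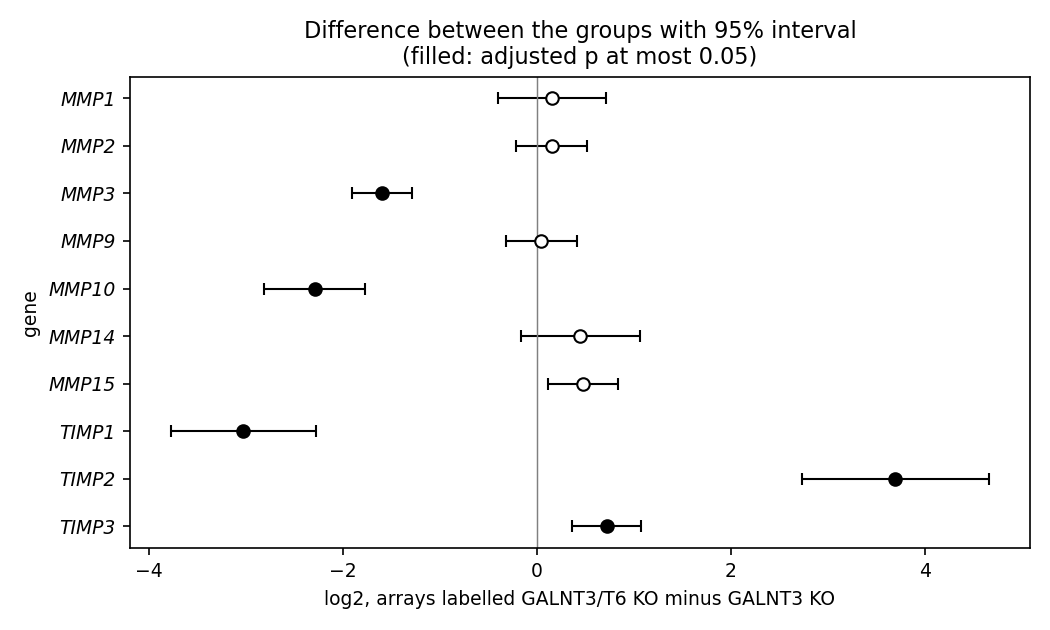
Difference of the log2 ratio between the groups, clones labelled GALNT3/T6 KO minus GALNT3 KO, for each gene with its 95% confidence interval from limma (n = 2 arrays in each group); filled points have an adjusted p of at most 0.05. TIMP1, MMP10 and MMP3 lie below 0, TIMP2 and TIMP3 above it, and the intervals of MMP1, MMP2, MMP9 and MMP14 include 0.

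Proteases were then set against inhibitors within each clone, as a description without a test. The median log2 ratio of the 7 proteases minus that of the 3 inhibitors was -0.15 in both GALNT3 KO clones and -0.54 and -0.72 in the clones labelled GALNT3/T6 KO. It was below 0 in all 4 clones and lower in both clones labelled GALNT3/T6 KO. The inhibitor medians, 0.10 and 0.15 against 0.73 and 0.96, were those of TIMP3 on each array, and the protease medians were -0.05 and 0.00 against 0.19 and 0.23.

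Taken inhibitor by inhibitor, the order differed between the groups. Against TIMP1, all 7 proteases had the lower log2 ratio in both GALNT3 KO clones, by 1.03 to 3.43, whereas in both clones labelled GALNT3/T6 KO only MMP3 and MMP10 did. Against TIMP2 the order was turned, since only MMP3 and MMP10 were lower in the GALNT3 KO clones and all 7 were lower in the clones labelled GALNT3/T6 KO, by 1.45 to 7.29. Against TIMP3, 4 of the 7 were lower in each GALNT3 KO clone, MMP1, MMP3 and MMP10 in both together with MMP14 in clone 1 and MMP15 in clone 2, and all 7 in each clone labelled GALNT3/T6 KO. Over the 21 pairs, the protease had the lower ratio in 13 in each GALNT3 KO clone and in 16 in each clone labelled GALNT3/T6 KO. MMP3 and MMP10 were lower than each of the 3 inhibitors in each of the 4 clones, and the other 5 proteases were lower in some pairs and higher in others. The pairs of a clone share genes and are not independent.

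**Figure D5:**
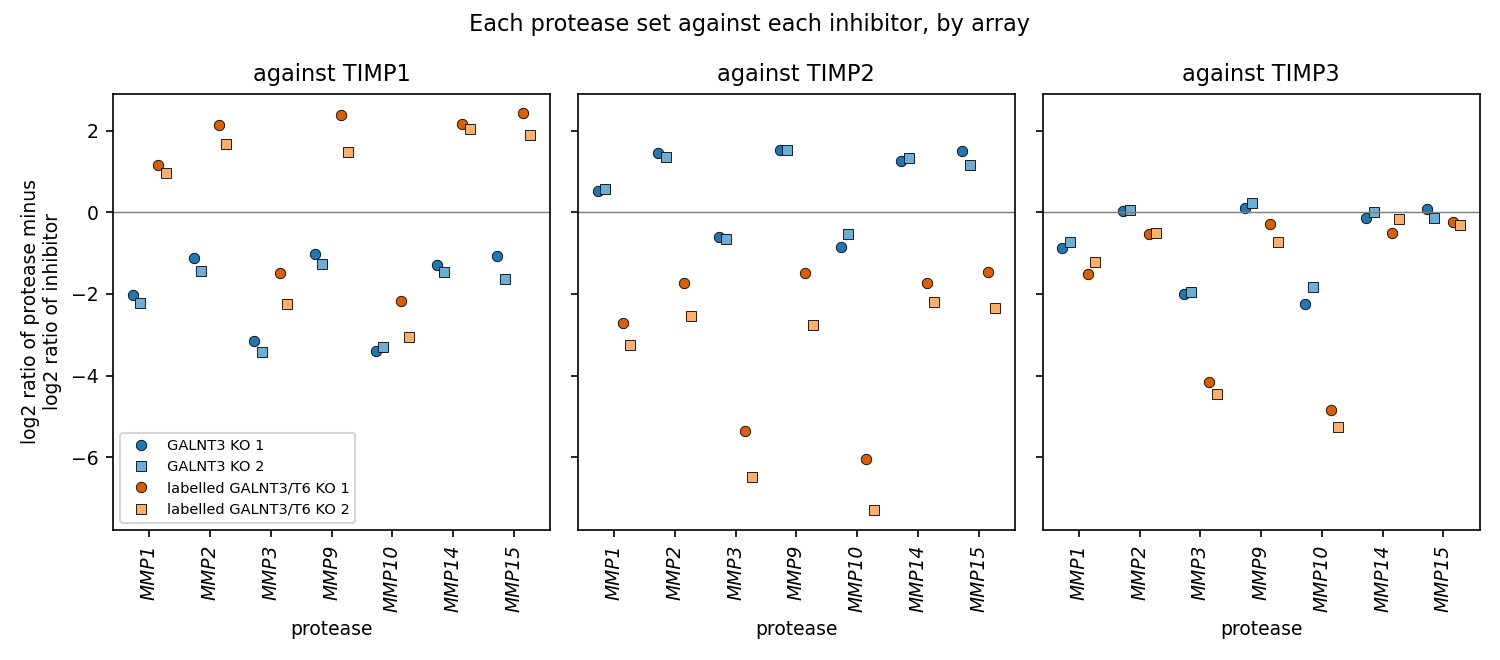
Log2 ratio of each protease minus that of TIMP1, TIMP2 or TIMP3 on each of the 4 arrays. The GALNT3 KO clones lie below 0 for all 7 proteases against TIMP1, and the clones labelled GALNT3/T6 KO do so against TIMP2 and TIMP3.

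Of 17 further genes, the other MMPs and TIMP4, 16 were tested, and MMP13 was too dim. In GALNT3 KO, 2 rose and 0 fell. Among the clones labelled GALNT3/T6 KO 5 rose and 2 fell, and the median log2 ratio was 0.20, beside 0.03 over all genes tested. Of all genes tested, 11.2% and 47.9% were called in these comparisons, so neither count sets the other MMPs apart. MMP16, a further membrane-type protease, rose by 0.89 on the log2 scale in GALNT3 KO (adjusted p = 0.0235 from limma) and fell by 0.74 in the clones labelled GALNT3/T6 KO (adjusted p = 0.00517), with a difference of -1.63 between the groups (adjusted p = 0.00281). MMP28, epilysin, rose in both groups, by 0.43 and 0.50. In the clones labelled GALNT3/T6 KO, MMP23B, an MMP with a membrane anchor at its amino end, rose by 2.16 and MMP11, stromelysin-3, fell by 1.12. Despite its name, MMP11 lies on chromosome 22, outside the cluster of MMP3 and MMP10. The rises of MMP7, MMP27 and MMP19 there were of 0.51, 0.39 and 0.33. MMP23B and MMP11 also differed between the groups, by 2.42 and -1.23 (adjusted p = 0.00106 and 0.0204).

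Genes of proteins that act on MMPs, or that resemble or regulate them, were read from lists set by function. The counts in each of these lists stand beside 11.2% of all genes called in GALNT3 KO, 47.9% in the clones labelled GALNT3/T6 KO (24.8% higher and 23.1% lower) and 23.7% between the groups. Of 18 other inhibitors and regulators, which include serpins, RECK and matricellular proteins, limma called 0 in GALNT3 KO (4 at an unadjusted p of at most 0.05), and 14 rose and 1 fell in the clones labelled GALNT3/T6 KO. Their median log2 ratios were 0.09 and 1.14, and between the groups 11 were higher and 1 lower, or 4 and 1 without either GALNT3 KO array. CD44, a hyaluronan receptor that can hold MMP9 at the cell surface, rose by 5.46 on the log2 scale in the clones labelled GALNT3/T6 KO, CAV1, caveolin, by 3.60 and SPARC, a matricellular protein, by 3.43, while PCOLCE, which enhances procollagen processing, fell by 2.53. Mean Ctrl levels on the GALNT3 KO arrays and the others were 7.86 and 10.08 for CD44 and 10.78 and 11.63 for CAV1. They were 14.34 and 14.15 for SPARC and 13.68 and 13.58 for PCOLCE. Of 19 activators of MMPs tested, 3 rose and 2 fell in GALNT3 KO and 8 rose and 1 fell in the clones labelled GALNT3/T6 KO, with median log2 ratios of 0.07 and 0.13. Of all genes tested 47.9% were called in the latter, so the count of activators does not stand apart there. In GALNT3 KO the falls were those of PLAUR, the urokinase receptor, by 1.20 (adjusted p = 0.0131 from limma) and CTSB, cathepsin B, by 0.59, and the rises those of the proprotein convertases PCSK6 and PCSK7 and the kallikrein KLK7, by 0.69, 0.53 and 0.45. In the clones labelled GALNT3/T6 KO PLAU, urokinase, rose by 3.65 and CTSB by 1.84, and PCSK6 fell by 1.53. PLAT, tissue plasminogen activator, rose there by 1.71, with 0.61 and 2.81 in the clones, and barely met the threshold (adjusted p = 0.04997 from limma).

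Of 28 ADAM and ADAMTS genes tested, which encode related metalloproteases, 2 rose and 0 fell in GALNT3 KO, namely the aggrecanase ADAMTS5 by 0.60 and ADAMTS7 by 0.54. In the clones labelled GALNT3/T6 KO 9 rose and 6 fell, beside 47.9% of all genes tested. ADAMTS12 rose by 3.83, ADAM23 by 2.01 and ADAM9 by 1.88. Their mean Ctrl levels were 7.35, 7.38 and 12.11 on the GALNT3 KO arrays and 9.74, 8.04 and 12.08 on the others. The procollagen protease ADAMTS3 fell by 2.22, the von Willebrand factor protease ADAMTS13 fell by 1.59 and ADAM22 fell by 1.24. The median was 0.09 in both groups. Between the groups 4 were higher and 5 lower, ADAM12 and ADAM8 among them, but without either GALNT3 KO array 2 were higher and 0 lower, so the call of ADAM8 was lost.

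Transcription of several MMP genes is driven through AP-1 and ETS factors. Of 20 factors listed as such, which include RUNX2 of neither family, 1 was called in GALNT3 KO, JUND with a rise of 0.79. In the clones labelled GALNT3/T6 KO 8 rose, RUNX2 among them, and 6 fell, beside 47.9% of all genes tested. Among the 17 factors left by a strict filter on dim probes 5 rose and 6 fell. JUN, a subunit of AP-1, rose there by 4.25, the ETS factor FLI1 by 4.15 and ATF3 by 2.40, while the ETS factors ETV1, ETV5 and ETV4 fell by 1.62, 1.57 and 1.11. JUN was well above background in the Ctrl channel on neither GALNT3 KO array, and FLI1 on 1 of 2, so no difference between the groups is given for them. The mean Ctrl level of JUN was 6.84 on these arrays and 10.33 on the others, and that of FLI1 was 6.88 and 6.89. FOS was lower by 1.18 in the clones labelled GALNT3/T6 KO than in GALNT3 KO (adjusted p = 0.0105 from limma), and between the groups 0 factors were called lower without either GALNT3 KO array. Of 20 ligands and receptors that induce MMP genes, 1 rose and 1 fell in GALNT3 KO, IL1R1 by 0.48 and TGFBR1 by 0.40, and 16 rose and 2 fell in the clones labelled GALNT3/T6 KO, beside 24.8% and 23.1% of all genes. The median was 1.08 there and 0.11 in GALNT3 KO. TGFBR2, TGFB2 and IL6 rose in the clones labelled GALNT3/T6 KO by 3.48, 3.40 and 2.41, and TGFB1 and TGFBR1 fell by 1.16 and 0.42. A fit without either GALNT3 KO array leaves 1 clone in that group. Its calls against Ctrl were then lost over all genes, so the fit cannot tell whether those of these lists hold.

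Markers of cell types were read beside these results. The counts of called markers stand beside 11.2% of all genes called in GALNT3 KO and 47.9% in the clones labelled GALNT3/T6 KO. The few calls among macrophage, leukocyte and endothelial markers do not stand apart from these shares. Of 10 markers of ovarian epithelial carcinoma, limma called 0 in GALNT3 KO (2 at an unadjusted p of at most 0.05), and 8 rose and 0 fell in the clones labelled GALNT3/T6 KO, beside 24.8% of all genes higher and 23.1% lower. Their summed intensity in the KO channel was 11745 and 10116 in GALNT3 KO and 950510 and 892630 in the clones labelled GALNT3/T6 KO. The channel labelled Ctrl read 9396 and 8518 on the former arrays and 47081 and 34797 on the latter, and whether both groups had the same Ctrl RNA cannot be told from the labels and methods. Most of the KO sums in the clones labelled GALNT3/T6 KO came from the keratins KRT18 and KRT19, which rose by 5.68 and 4.81 on the log2 scale. KRT7 and KRT8 rose there by 2.89 and 2.83. PAX8, MSLN, WT1 and CDH1 rose by 1.21, 1.08, 1.01 and 0.75, and MUC16 and EPCAM were not called. Of 8 fibroblast markers, a cell type that makes many MMPs and TIMPs, 1 fell in GALNT3 KO (4 at an unadjusted p of at most 0.05), with a median log2 ratio of -0.54 and 1 of 8 above 0. LUM, lumican, fell by 1.07 on the log2 scale (adjusted p = 0.012 from limma), while DCN, decorin, at -1.16 and PDGFRA, a receptor of platelet-derived growth factor, at -0.97 missed the threshold (adjusted p = 0.0723 and 0.0629). In the clones labelled GALNT3/T6 KO 4 fibroblast markers rose, PDGFRB, FAP, COL1A1 and THY1, by 3.44, 2.88, 1.98 and 1.24. The 3 that fell there were PDGFRA, LUM and COL3A1, by 1.94, 1.19 and 0.98. The summed KO channel of the 8 fibroblast markers was 50769 and 79316 there, 55203 and 48452 in GALNT3 KO and 52546 to 54795 in Ctrl. Of 7 macrophage and leukocyte markers tested 1 rose in GALNT3 KO and 3 rose in the clones labelled GALNT3/T6 KO, with sums of 8577 and 9580 in GALNT3 KO, 9233 and 8978 in the clones labelled GALNT3/T6 KO and 6056 to 7139 in Ctrl. Of 5 endothelial markers tested 1 rose in GALNT3 KO and 3 in the clones labelled GALNT3/T6 KO, with sums of 3950 and 3491, 4449 and 4741, and 2266 to 3011 in the same order. No marker tested was below background on all 4 Ctrl channels. The part of these markers in the differences of the MMP and TIMP genes was not tested, and neither was that of GALNT3.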

How the data were processed

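Human A2780s RNA was measured on 2-colour Agilent whole genome arrays, 1 array per KO clone, all on 1 slide. The authors deposited intensity values for each spot (mean signal and median local background of both channels), flags, and log10 ratios of Cy5 over Cy3 that Feature Extraction had background-subtracted and dye-normalized. Its version is 8.5.1.1 per the labels and 10.7.3.1 per the file headers. A second deposited table of log10 ratios equals the scanner log10 ratios after rounding. The labels give Ctrl as Cy3 and KO as Cy5 on each array, and the study's methods speak of reverse-color labelling, which was not resolved here, so the direction follows the labels. Spots are placed on hg19.

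Intensities were corrected with normexp (offset 50) and normalized by loess within arrays, with control spots and outlier spots at weight 0. Spots of a probe were averaged. Probes had to be well above background, in Cy3 or Cy5, on each array of 1 group or the other, and the brightest one stood for its gene (27196 genes). limma 3.58.1 (lmFit and eBayes, R 4.3.3) fitted log2 ratios of all 4 arrays with a mean for each group, and p-values were adjusted by Benjamini-Hochberg over all genes. Intervals cover 95%. Channel levels are log2 intensities after loess and Aquantile, in which the floor of dim channels is open to dye bias. Replicates are clones, so p-values measure the spread between 2 clones a group. Replicate numbers do not mark a shared origin in the labels. The script was tested on simulated data.

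Named are the 10 genes, GALNT3 and GALNT6, each called gene of the other MMPs and TIMP4, and up to 3 rises and 3 falls of each further list in a comparison. BIRC3, BIRC2, TMEM123, DCUN1D5, MMP8, MMP12 and MMP20 are named by position. The markers of cell types that are named follow no such rule. The members and lists were chosen with earlier results of these data known. Alternatives were no background correction, an offset of 10, median centring, the log ratio of Agilent, the table of deposited ratios, a mean over probes, looser and stricter filters on dim probes, the spread of the compared group only, the methods' t-test, the methods' criterion (unadjusted p at most 0.05 and at least 1.5-fold), a replicate block and each array left out.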

Additional observations from a re-analysis of the deposited data

Results flagged for a closer look

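The effects in the groups differed, by limma's test of the difference at an adjusted p of at most 0.05, for 5 of the 10 genes. The log2 ratio in the clones labelled GALNT3/T6 KO minus that in GALNT3 KO was -1.60 for MMP3, -2.29 for MMP10, -3.03 for TIMP1, 3.70 for TIMP2 and 0.72 for TIMP3. The call was lost in 1 of 15 alternatives for MMP3 and for MMP10. It was lost in 3 for TIMP1, in 3 for TIMP2 and in 5 for TIMP3. TIMP1 and TIMP2 are the ones whose clones lay on opposite sides of Ctrl in the groups. Of the other MMPs, the difference was -1.23 for MMP11, -1.63 for MMP16 and 2.42 for MMP23B. Among the ADAM and ADAMTS genes it was 3.56 for ADAMTS12, 2.05 for ADAM9, 1.60 for ADAM12, -1.77 for ADAMTS3, -1.56 for ADAMTS13 and -1.12 for ADAM8.

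Of the activators, PLAU differed by 3.56, PLAUR by 2.52, CTSB by 2.44 and PCSK6 by -2.22. Of the other inhibitors and regulators, CD44 differed by 5.41, CAV1 by 4.18, SPARC by 3.22 and PCOLCE by -2.59. The channel labelled Ctrl also differed between the pairs of arrays for some listed genes, with means of 7.86 and 10.08 for CD44. Over all genes tested the 90th percentile of this absolute difference was 0.40. Whether both groups had the same Ctrl RNA cannot be told. Of the AP-1 and ETS factors the differences were 2.51 for ATF3, -1.47 for ETV5, -1.18 for FOS and -0.96 for ETV4. Of the ligands and receptors, TGFB2 differed by 4.36, TGFBR2 by 3.17, IL6 by 2.29 and TGFB1 by -1.25. In the same test 23.7% of all genes tested were called. Genes not well above background in both channels of every array are not listed. Many of these calls rest on both GALNT3 KO clones, but a fit without 1 of them loses calls over all genes as well. Without either of their arrays 0 ADAM or ADAMTS genes and 0 AP-1 or ETS factors were called lower by limma, and the ligands and receptors called higher fell from 12 to 1 without GALNT3 KO replicate 1 and to 3 without replicate 2.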

How the results depend on the processing

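Of 470 values of a gene in a comparison under the alternatives, 382 kept direction and side of the threshold, 57 lost a call, 22 gained one and 9 changed sign. The changes of sign were of uncalled values. MMP15 in GALNT3 KO was -0.034 with median centring, -0.081 with Agilent's log ratio and -0.081 in the deposited table. Between the groups MMP9 was -0.055 with Agilent's log ratio and -0.055 in the deposited table. With an array left out, MMP14 in GALNT3 KO ran from -0.046 to 0.16, MMP9 between the groups from -0.057 to 0.15 and MMP1 between the groups from -0.10 to 0.42. MMP3 and MMP10 kept their call in the clones labelled GALNT3/T6 KO except under the methods' t-test adjusted over all genes, which called 0 of the 10 genes in each comparison and, unadjusted, 2, 2 and 5 in GALNT3 KO, in the clones labelled GALNT3/T6 KO and between the groups.

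In GALNT3 KO the number of the 10 genes called was 3. It was 6 with the spread of that group only, 5 by the methods' criterion, 2 with median centring and 0 to 6 with an array left out. In the clones labelled GALNT3/T6 KO it was 8, 5 by the methods' criterion and 6 to 8 with an array left out, and between the groups 5, and 2 to 7 with an array left out. Over all genes, 3053 genes called in GALNT3 KO became 590 with Agilent's log ratio, 586 in the deposited table, 9441 with the spread of that group only, 82 with the replicate block and 0 without either GALNT3 KO array, and the share called higher from 42.6% to 23.5% with median centring. In the clones labelled GALNT3/T6 KO they moved from 13020 to 8274 with the spread of that group only and to 8657 by the methods' criterion, and between the groups from 6446 to 1208 and 1421 without GALNT3 KO replicate 1 and 2. The methods' t-test adjusted over all genes called 0, 1 and 33 genes, and unadjusted 3994, 5688 and 6768. The cause was not tested.

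Same-numbered arrays deviated in opposite directions (r = -0.238), so the numbers do not pair the samples. The replicate block gave 1, 8 and 4 of the 10 genes and the crossed pairing, chosen after seeing the data, 4, 8 and 5. The protease median minus the inhibitor median moved by more than the spread of its clones in GALNT3 KO, where they were nearly equal. In clones 1 and 2 it was -0.11 and -0.16 without background correction, -0.19 and -0.15 with an offset of 10, -0.14 and -0.24 with median centring, -0.19 and -0.33 with Agilent's log ratio and in the deposited table, and -0.0078 in clone 2 with the mean of all probes. The slide could not serve as a block, since all arrays lay on 1 slide, and leaving out an array gives no other value per clone. The number of arrays limits the precision. With the sign turned on the GALNT3/T6 KO arrays, chosen after seeing the data, 8 of the 10 genes differed between the groups, and 14028 of all genes. The difference was 5.32 for MMP3, 6.13 for MMP10, 0.16 for TIMP1, -0.48 for MMP2, -0.63 for MMP9, -0.56 for MMP14, -0.66 for MMP15, -1.23 for TIMP2 and -0.96 for TIMP3, each of the opposite sign to that reported.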
